A study of Rattus norvegicus and synthetic construct with 4 samples.

Results

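The elements described here were chosen by position, as promoter elements of human translation factor genes, and their activity was measured with a STARR-seq reporter. The genes were listed with earlier results of these data known, so the choice was not blind to those results. An element was taken as a member when its midpoint (hg19, as are all coordinates) lay within 2 kb of the listed start of 1 of 36 genes for initiation factors, elongation factors and their partners. The rule found 37 of the 3378 counted elements, at 25 of the 36 genes. Members of EIF3I, EEF1B2, HARS and EEF1A1 numbered 3 for each gene, those of EIF4G2, NACA, EIF2S1 and EIF6 numbered 2, and 17 genes had 1. Only elements that had been paired with a barcode but not counted lay at EIF1 and EEF2. The pairing table as used here held no element in range at EIF3A, EIF3B, EIF3F, EIF3J, EIF4G1, EIF4H, EIF5, EIF5A and PABPC1. The pairing table held 6 uncounted elements in range, with 1 to 6 barcodes each, and their activity was not analysed here. Listed starts are in whole kb, so distances are approximate. The listed positions were not checked against a gene annotation and can lie further than rounding from a gene's true start. The member furthest from its listed position, at EEF1A1, was 1764 bp from it, which is not its distance from the true start. No further element appeared between 2 and 3 kb.

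Translation begins when initiation factors bring the small ribosomal subunit, the initiator tRNA and a capped messenger RNA together. The eIF3 complex is a scaffold of many subunits on the small ribosomal subunit, the eIF4 factors bind and unwind the cap-proximal messenger RNA, and eIF2 delivers the initiator tRNA. Elongation factors then deliver each aminoacyl-tRNA and move the ribosome along. These genes are expressed in nearly all cells, and beta cells translate large amounts of insulin. Many of them have promoters without a TATA box and some, such as those of EEF1A1 and TPT1, make messages that open with a pyrimidine tract, known as TOP messages.

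In STARR-seq a plasmid carries a candidate element that drives its own transcription, so RNA relative to plasmid DNA measures activity. This is activity in the reporter, and it was not compared with the output of the promoters at their genes. The library was designed with 7188 human islet elements of 198 bp, found by CAGE, which maps the 5' ends of transcripts. It was electroporated into INS1 832/13 cells, a rat insulinoma line used as a beta cell model, which were harvested 24 h later. One group was the plasmid input (1 library), and the other was RNA from the cells (3 libraries, from replicates the labels call biological), and all RNA libraries received the same plasmid library. The elements are human and the cells are from rat, and the strand and transcript that each element belongs to were not used here. Several of these genes, HARS among them, are known to share a promoter region with a gene that runs the other way, so an element is named only by the listed gene nearest to it.

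Total counts were 1079728 for the plasmid DNA and 211117, 197554 and 218571 for RNA replicates 1 to 3. The 37 elements had 385 of the 35153 counted barcodes, 2 to 52 each with a median of 7, against a median of 6 over all elements. Each random barcode of 16 bases marks a separately made plasmid. The RNA libraries detected 70.9% (exact 95% binomial confidence interval 66.1 to 75.4%), 75.1% (70.4 to 79.3%) and 77.9% (73.4 to 82.0%) of the 385 barcodes, against 62.0, 65.1 and 67.6% of all barcodes. These intervals treat the 385 barcodes as independent although those of 1 element share its sequence, so the intervals can be too narrow. They do not cover the spread between elements or electroporations, and no molecular identifier is stated. Every counted barcode had at least 10 DNA counts and at least 1 RNA count in some library, so plasmids with no RNA are missing from the ratios. Activities are RNA/DNA relative to the centre of the library as set by TMM, not to a control sequence. A value below 1 is therefore not repression. With 1 DNA library, the spread between DNA libraries could not be measured. The SD shows the spread between RNA libraries alone, while edgeR's SE and p also draw on a variance estimated across all elements.

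The barcodes of the strongest member and of the near-silent downstream element at EIF3I are shown because each is an independent plasmid of its element. The letters are random tags and are in lower case with none marked. The human element sequences were not used here.
EIF3L plasmid 1: ctttctactctgtaaa
EIF3L plasmid 2: tgctccgactaggaaa
EIF3L plasmid 3: gccgtcaggccatgcc
EIF3L plasmid 4: aaaataagttctcaat
EIF3L plasmid 5: atatatacagctagcg
EIF3L plasmid 6: ggtggaccttcttgct
EIF3L plasmid 7: aataatgcgtctttgc
EIF3I plasmid 1, downstream element: tctaagctagacagac
EIF3I plasmid 2, downstream element: gttcaatgatataggt
EIF3I plasmid 3, downstream element: cttttctagaatttcc
EIF3I plasmid 4, downstream element: cagaatgtggagatcc
EIF3I plasmid 5, downstream element: cctgtgtcattgaata
EIF3I plasmid 6, downstream element: gtagtgtacttttgtt

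Elements near translation factor genes ranged from among the strongest of the library to nearly silent ones, and the eIF3 subunit genes held most of the strong ones. Of 37 elements, 7 (18.9%) passed edgeR's quasi-likelihood test above the centre (Benjamini-Hochberg adjusted p under 0.05), against 8.88% of all 3378 elements. They belonged to 6 genes, EIF3L, EIF3M, EIF3I with 2 overlapping elements, EIF3K, EIF2A and EEF1B2. By this test 0 of the 37 lay below the centre, against 0% of all elements. Unadjusted p under 0.05 was found for 8 members above the centre and for 0 below it, against 13.5 and 0.77% of all elements. DESeq2 placed 0 below, and its share below over all elements was not counted. It gave no adjusted p for 12 of the 37 members, which it therefore could not call. Limma-voom placed 2 below, the downstream EIF3I element and NACA at 57118190, against 4.03% of all elements. With barcodes weighted equally, limma placed 1 below, the downstream EIF3I element, against 2.63% of all. Members had a median log2 ratio of 0.52, against -0.03 for all elements. A log2 ratio above 0 was found for 25 of 37 members (67.6%), against 48.8% of all elements. In 18 members every RNA library was above the centre, in 7 every library was below it, and 12 were mixed. These counts were not made over all elements. The ratios of an element also share 1 DNA library, so they describe the members only. The members made up 1.17% of the DNA counts and 2.22% ± 0.0614 (SD, n = 3) of the RNA counts. The 7 called elements alone held 0.392% of the DNA and 1.65% ± 0.0320 of the RNA.

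The count of calls varied with the low counts and with the test. When RNA counts of 1 to 4 were set to 0 for every barcode, 4 of the 7 remained called, against 3.4% of all elements. With each barcode weighted equally in limma 11 members were above the centre, the 7 among them, against 14.4% of all, and with limma-voom 9, against 15.1%. The equal-weight test uses only the spread between RNA libraries, moderated across elements. All its ratios share 1 DNA library, so error in the DNA counts does not enter its p. The calls lost without 1 library concerned EIF3K and EEF1B2 without RNA replicate 2, and the first EIF3I element and EEF1B2 without RNA replicate 3. Without replicate 1, 2 or 3, 7, 5 and 5 members were called, against 8.56, 5.71 and 6.45% of all elements. EIF3L, EIF3M, EIF2A and the middle EIF3I element were called under all the alternatives run to the fit and its input.

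The subunits of eIF3 had the highest median activity of the role groups. Their 10 elements, at 8 of the 12 listed subunit genes, had a median log2 ratio of 1.85, and 5 of them (50%) were above the centre, against 8.88% of all elements. With RNA counts of 1 to 4 set to 0, 3 of the 10 were, against 3.4% of all. Outside eIF3, 2 of 27 elements (7.41%) were above it, a share near the 8.88% of the whole table, with a median of 0.32. The difference between the role groups was not tested, and the groups were chosen with earlier results of these data known. The 10 elements held 0.336% of the DNA and 1.29% ± 0.0906 (SD, n = 3) of the RNA counts.

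EIF3L encodes a subunit of the eIF3 complex, and its element, chr22:38245338-38245535, was the strongest member and ranked number 5 of all 3378 elements. RNA/DNA was 21.9, 20.3 and 19.6 times the centre in the 3 RNA libraries, from 298 DNA counts and 762, 675 and 702 RNA counts. The libraries lay close together and far above the centre. The mean was 20.6 ± 1.17 (SD, n = 3), and the log2 ratio was 4.36 ± 0.32 (SE; edgeR quasi-likelihood adjusted p = 3.47e-19).

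All 7 EIF3L plasmids were strongly active. Plasmid 1 had 67 DNA counts and 231, 230 and 226 RNA counts. Plasmid 2 had 66 DNA counts and 147, 133 and 147 RNA counts, and plasmid 3 had 61 and 140, 79 and 101. RNA counts thus exceeded DNA counts for these plasmids in every library, although each RNA library was far smaller than the DNA library. Plasmid 4 had 37 DNA counts and 121, 97 and 96 RNA counts, and plasmid 5 had 18 and 34, 65 and 62. The weakest plasmid by ratio, plasmid 6, had 34 DNA counts and 59, 42 and 29 RNA counts. Plasmid 7 had 15 DNA counts and 30, 29 and 41 RNA counts. Pooled over the RNA libraries, the plasmids ranged from 11.0 to 29.4 times the centre, so none was near it and no single plasmid set the value. The SD of log2 RNA/DNA between them was 0.57, against a median of 1.85 over the members, with a pseudocount of 0.5. With a pseudocount of 5 these values were 0.53 and 0.98.

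EIF3M encodes a further eIF3 subunit, and its element, chr11:32605288-32605485, gave ratios of 7.36, 6.27 and 10.4. Its 15 barcodes carried 556 DNA counts and 478, 389 and 697 RNA counts. All libraries were well above the centre, with replicate 3 the highest. The mean was 8.02 ± 2.16 times the centre (SD, n = 3) and the log2 ratio 3.00 ± 0.33 (SE; edgeR quasi-likelihood adjusted p = 1.12e-11). Every one of the 15 plasmids was above the centre when the libraries were pooled, from 1.28 to 29.9 times.

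EIF3I, which encodes a small WD-repeat subunit of eIF3, had 3 elements at stepped positions, and the one at the highest coordinates, called downstream here, was nearly silent. The middle element, chr1:32687925-32688122, had ratios of 8.04, 6.04 and 7.97 from 34 barcodes, which had 1108 counts in the DNA and 1040, 747 and 1060 in the RNA. Its mean was 7.35 ± 1.13 times the centre (SD, n = 3) and its log2 ratio 2.88 ± 0.27 (SE; edgeR quasi-likelihood adjusted p = 1.62e-14). Of its 34 plasmids, 33 were above the centre. The first element, chr1:32687846-32688043, shares 119 bp with it and had ratios of 5.21, 3.61 and 9.79 from 6 barcodes. Both elements were above the centre in every library, and their order was not the same in all libraries. The mean of the first was 6.21 ± 3.21 (SD, n = 3) and its log2 ratio 2.63 ± 0.62 (SE; edgeR quasi-likelihood adjusted p = 0.00104). Without RNA replicate 3, in which it was highest, the log2 ratio was 2.14 and the adjusted p 0.144, and with RNA counts of 1 to 4 set to 0 they were 2.18 and 0.219. The difference between this pair was -0.36 ± 0.57 on the log2 scale (first minus middle, SD, n = 3), smaller than its spread.

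The downstream EIF3I element, chr1:32688050-32688247, shares 73 bp with the middle one and gave ratios of 0.0696, 0.0728 and 0.339. Its 6 barcodes had 246 DNA counts but 2, 2 and 10 RNA counts, with a mean ratio of 0.160 ± 0.154 (SD, n = 3). None of its plasmids was above the centre. Plasmid 2, with 85 DNA counts, gave 0, 0 and 4 RNA counts, and plasmid 3, with 62 DNA counts, gave 0, 0 and 2. Plasmids 1, 5 and 4 had 35, 40 and 10 DNA counts and summed to 5, 1 and 1 RNA counts, and plasmid 6 had 14 DNA counts and 1 RNA count. The element itself was not called below the centre (log2 ratio -2.62 ± 1.65 SE, edgeR quasi-likelihood adjusted p = 0.580). The middle element was higher in 3 of 3 libraries, by 5.93 ± 1.21 on the log2 scale (SD, n = 3). From summed RNA counts of 2847 and 14 over their DNA, the ratio of the pair was 45.1-fold, with an exact 95% interval of 26.9 to 82.7-fold for RNA counting error only. An exact sign test over 3 libraries has a smallest p of 0.25, so no p is given for differences between elements.

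EIF3K encodes an accessory eIF3 subunit, and its element, chr19:39109754-39109951, gave ratios of 3.67, 5.50 and 2.66 from 20 barcodes. The counts were 583 for DNA and 250, 358 and 186 for RNA. All libraries were above the centre and replicate 2 was the highest. The mean was 3.94 ± 1.44 times the centre (SD, n = 3), the log2 ratio 1.98 ± 0.41 (SE) and edgeR's quasi-likelihood adjusted p 0.000133. Without RNA replicate 2 the log2 ratio was 1.66 and the adjusted p 0.0709, and with RNA counts of 1 to 4 set to 0 they were 1.45 and 0.253. Pooled over libraries, 18 of the 20 plasmids were above the centre.

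The other eIF3 elements did not pass the test and rested on 4 to 7 barcodes. The element of EIF3D, a subunit that can bind the messenger RNA cap, started at 36925106 on chromosome 22 and gave 3.43, 2.99 and 3.57 times the centre. These values were even between libraries, but the element had 4 barcodes, 1 of which gave 69.7% of its RNA counts, and edgeR's quasi-likelihood adjusted p was 0.625. EIF3H, at 117767944 on chromosome 8, gave 1.11, 1.16 and 2.63 times the centre. EIF3G, which encodes an RNA-binding subunit, started at 10230465 on chromosome 19 and gave 0.0635, 2.99 and 1.79 times, from 1, 45 and 29 RNA counts. EIF3E, at 109260850 on chromosome 8, gave 0.241, 1.33 and 0.235 times. For EIF3G and EIF3E the libraries fell on both sides of the centre.

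Of the 6 elements of the eIF4 group 0 passed edgeR's test, also at an unadjusted p under 0.05, and 0 passed by DESeq2. Over all elements these rules called 8.88, 13.5 and 12.4%, so 0 of 6 is near the background. How many of the 6 had an adjusted p from DESeq2 was not counted. Their median log2 ratio was 0.28. EIF4E, the cap-binding protein, had the best-measured element, chr4:99850181-99850378, with 24 barcodes, 921 counts in the DNA and 152, 117 and 193 RNA counts. Its ratios were 1.41, 1.14 and 1.75, all a little above the centre, with a mean of 1.43 ± 0.304 (SD, n = 3). The log2 ratio was 0.52 ± 0.43 (SE; edgeR quasi-likelihood adjusted p = 0.773), and with library totals in place of TMM it was -0.22. Its plasmids divided evenly, 12 of 24 above the centre.

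EIF4B, which stimulates the eIF4A helicase, had ratios of 3.79, 2.73 and 2.87 at 53400127 on chromosome 12. All its libraries were above the centre, yet 3 of its 7 plasmids were, and edgeR's quasi-likelihood adjusted p was 0.386. By limma-voom it was the 1 element of the group that passed. EIF4A2 and EIF4A1 encode the closely related helicases. EIF4A2, at 186502131 on chromosome 3, gave 2.60, 6.88 and 0.446 times the centre from 4 barcodes. EIF4A1, at 7476037 on chromosome 17, gave 1.86, 0.285 and 0.409 times from 8 barcodes. Neither helicase element kept 1 side of the centre across the libraries.

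EIF4G2 encodes a relative of the eIF4G scaffold that lacks the site for eIF4E. Its 13-barcode element, chr11:10830351-10830548, had ratios of 1.40, 0.311 and 0.376. The log2 ratio was -0.52 ± 1.18 (SE; edgeR quasi-likelihood adjusted p = 0.966). A neighbour that shares 98 bp, starting at 10830451, had 2 barcodes and ratios of 2.57, 0.179 and 0.333. Both were highest in replicate 1, and their difference of 0.03 ± 0.85 (log2, SD, n = 3) was smaller than its spread.

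Among factors that select the start site or join the subunits, EIF2A was the strongest. EIF2A encodes an initiator-tRNA-binding protein that is separate from the eIF2 complex. Its element, chr3:150264483-150264680, had the most barcodes of any member, 52, with 1331 DNA counts and 758, 843 and 728 RNA counts. The ratios of 4.88, 5.67 and 4.55 were close together, with a mean of 5.04 ± 0.576 times the centre (SD, n = 3). The log2 ratio was 2.33 ± 0.27 (SE; edgeR quasi-likelihood adjusted p = 6.09e-11). Pooled over libraries, 45 of its 52 plasmids (86.5%) were above the centre, with a median of 4.33 times, and the plasmid with most RNA gave 7.64% of the RNA counts.

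EIF2S1 encodes the subunit of eIF2 that is phosphorylated under stress. Its element chr14:67826441-67826638 had ratios of 2.92, 1.14 and 3.24 from 10 barcodes, with a mean of 2.43 ± 1.13 (SD, n = 3). All libraries were above the centre, replicate 2 only slightly, and 9 of 10 plasmids were. The log2 ratio was 1.28 ± 0.64 (SE) and edgeR's quasi-likelihood adjusted p 0.343. It passed the threshold by limma-voom (adjusted p 0.0247) and with barcodes weighted equally in limma (0.0446). A separate element starting at 67826970 had 2 barcodes and ratios of 0.886, 2.01 and 0.144.

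The remaining elements of this role did not pass the test. EIF2S2, a further eIF2 subunit, gave 0.562, 2.50 and 2.18 times the centre at 32699941 on chromosome 20. EIF6, which keeps the ribosomal subunits apart until they are ready to join, had a 7-barcode element at 33872462 with ratios of 1.63, 1.05 and 1.19. Its other element, starting at 33872235, was seen in 1 RNA library only, with 4 counts over 2 barcodes.

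Among the elongation factors 1 of 7 elements (14.3%) passed, at EEF1B2, against 8.88% of all elements, a single call that is near the background, and the median log2 ratio was 0.32. EEF1B2 encodes a nucleotide exchange subunit that recharges the tRNA-delivering factor eEF1A. Its middle element, chr2:207024256-207024453, gave ratios of 4.02, 6.29 and 5.06 from 7 barcodes, which had 181 counts in the DNA and 85, 127 and 110 in the RNA. All libraries were well above the centre. The mean was 5.12 ± 1.13 times (SD, n = 3) and the log2 ratio 2.35 ± 0.65 (SE; edgeR quasi-likelihood adjusted p = 0.00734). The adjusted p was 0.160 without RNA replicate 2, 0.0682 without replicate 3, 0.151 with library totals and 0.314 with RNA counts of 1 to 4 set to 0, at log2 ratios of 2.18, 2.36, 1.62 and 1.86. Of its plasmids, 6 of 7 were above the centre.

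The flanking EEF1B2 elements were weaker in every library. The upstream one, starting at 207024070 and sharing 12 bp with the middle element, gave 1.92, 1.01 and 2.78 times the centre, and 1 of its 6 barcodes held 58.9% of its RNA counts. It lay below the middle element by a log2 difference of -1.52 ± 0.97 (SD, n = 3), and of -2.62 without the barcode with most RNA of each element. The downstream one, starting at 207024549, gave 0.271, 0.314 and 0.526 times, all below the centre but not called (edgeR quasi-likelihood adjusted p = 0.848). The middle element exceeded it by 3.83 ± 0.53 (log2, SD, n = 3), or 13.7-fold from summed counts, with an exact 95% interval of 9.73 to 19.8-fold for RNA counting error only. At both EIF3I and EEF1B2, the active elements were thus followed at higher coordinates by an element below the centre in every library, though not called. At NACA and EIF6 the element at higher coordinates was the higher of the pair in every library, but the lower element of each had 2 barcodes. Strand was not used, so coordinate order is not the order along a gene. Whether the pattern differs between these genes in the direction of transcription was therefore not determined.

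EEF1A1 encodes the main tRNA-delivering elongation factor, and none of its 3 elements, with 64 barcodes between them, passed the test. Which of them covers the gene's true start was not determined, so their barcodes are not all measurements of 1 promoter. The element chr6:74229598-74229795 had 39 barcodes, 1299 DNA counts and 136, 105 and 93 RNA counts. Its ratios of 0.897, 0.724 and 0.596 were all below the centre, with a mean of 0.739 ± 0.151 (SD, n = 3). The log2 ratio was -0.44 ± 0.45 (SE; edgeR quasi-likelihood adjusted p = 0.860), and 16 of 39 plasmids were above the centre. The element chr6:74230666-74230863 had 14 barcodes and ratios of 1.15, 1.36 and 1.24, with a log2 ratio of 0.32 ± 0.57 (SE; edgeR quasi-likelihood adjusted p = 0.953). With library totals its log2 ratio was -0.41. The element chr6:74229044-74229241 had 11 barcodes and ratios of 1.20, 0.240 and 1.14, with a log2 ratio of -0.21 ± 1.06 (SE; edgeR quasi-likelihood adjusted p = 0.999). Elements 74230666 and 74229598 kept their order in 3 of 3 libraries, with a difference of -0.78 ± 0.37 (log2, lower minus higher coordinate, SD, n = 3). EEF1G, a structural subunit of the exchange complex, gave 1.20, 1.86 and 1.12 times the centre at 62341255 on chromosome 11, from 7 barcodes.

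Of the 8 elements at ribosome-associated and other genes 0 were above the centre in edgeR's test, also at an unadjusted p under 0.05, with DESeq2 and with limma-voom. How many of the 8 had an adjusted p from DESeq2 was not counted. The shares of all elements were 8.88, 13.5, 12.4 and 15.1%, so 0 of 8 is near the background. Their median log2 ratio was 0.12. GNB2L1, also known as RACK1, is a scaffold on the small ribosomal subunit, and its element chr5:180670773-180670970 had 16 barcodes and 660 DNA counts. Its ratios were 0.480, 0.937 and 1.41, on both sides of the centre, with a log2 ratio of -0.08 ± 0.62 (SE; edgeR quasi-likelihood adjusted p = 0.999). BTF3 and NACA encode the partners of the nascent polypeptide-associated complex, which binds new chains at the ribosome. BTF3, at 72794187 on chromosome 5, gave 3.48, 2.47 and 3.62 times the centre, but 1 of its 3 barcodes held 76.6% of the RNA counts. It was above the centre with barcodes weighted equally in limma.

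The 13-barcode NACA element, chr12:57119019-57119216, gave 1.26, 1.73 and 1.82 times the centre. Its log2 ratio was 0.68 ± 0.74 (SE; edgeR quasi-likelihood adjusted p = 0.879), and -0.06 with library totals. The other NACA element, at 57118190, had 2 barcodes, 183 counts in the DNA and 4, 0 and 17 in the RNA. TPT1, which encodes the translationally controlled tumour protein, gave 0.769, 0.230 and 0.641 times at 45915180 on chromosome 13, all below the centre and from 4 barcodes.

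HARS, the histidyl-tRNA synthetase, had 3 elements tiled in steps, none of which passed. The middle one, starting at 140071013, gave 4.62, 5.34 and 0.842 times the centre from 4 barcodes. The next, starting at 140071113 and sharing 98 bp with it, gave 0.0669, 0.140 and 0.586 times from 6 barcodes, none of whose plasmids was above the centre. The first of the pair was higher in 3 of 3 libraries, but the difference of 3.96 ± 3.01 (log2, SD, n = 3) varied widely, and in replicate 3 it was 0.52. The element starting at 140070835 had 2 barcodes and ratios of 0.581, 2.89 and 0.282.

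The share called at genes known for TOP messages was near that of the whole table. Of the 12 elements at 8 such genes, 1 (8.33%) was above the centre, that of EEF1B2, and their median log2 ratio was 0.12. The TOP genes with an element were EEF1A1, EEF1B2, EEF1G, EIF3E, EIF3H, EIF4B, GNB2L1 and TPT1. Whether genes outside this list also make TOP messages was not checked. Of the 25 elements at genes outside the list, 6 (24.0%) were above the centre, with a median of 0.69. Except for the EIF2A element, these 6 were eIF3 elements. The split by TOP message thus rests largely on the calls already described for eIF3. The difference between these lists was not tested, and members of a gene that overlap share sequence.

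The number of barcodes bears on which elements could be called. Among all elements, 3.38% of those with 2 to 4 barcodes were above the centre, 7.22% with 5 to 9, 12.5% with 10 to 19 and 22.0% with 20 or more. Among the members the counts were 0 of 11, 3 of 14, 1 of 7 and 3 of 5 in the same classes. The lowest log2 ratio called in the table was 2.25 in the first class and 0.97 in the last. The 6 members with a log2 ratio of at least 1 that were not called, at HARS, EIF3D, EIF4A2, BTF3, EIF4B and EIF2S1, had 3 to 10 barcodes. Their differences from the centre were not detectable at this depth by edgeR's test.

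The RNA libraries were also compared over the 37 elements. Pearson's r between replicates 1 and 2, 1 and 3, and 2 and 3 was 0.650, 0.693 and 0.576 on the log2 scale, against a mean of 0.526 over all elements. All ratios share 1 DNA library, which by itself raises r, so these values are a description and no measure of agreement, and no p is given. Separate plasmids of 1 member differed by a median SD of 1.85 on the log2 scale with a pseudocount of 0.5, which includes the counting noise of single barcodes.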

How the data were processed

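The authors deposited raw counts per barcode, in 1 plasmid DNA and 3 RNA columns, and a table pairing barcodes with elements, as judged from the files' values and headers. The counts are whole numbers and not normalized. How barcodes were counted and how the table was filtered is not stated in the labels or headers, and the submitters' processing notes name hg19 as the build. Names of elements give a start counted from 0, printed here counted from 1.

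Groups came from sample titles. Counts were summed over barcodes and tested for all 3378 elements as RNA against DNA with edgeR 4.0.16 (R 4.3.3; TMM, quasi-likelihood, Benjamini-Hochberg at 0.05; no filter). TMM factors were 1.47 for DNA and 0.876, 0.895 and 0.870 for RNA. The SE is the absolute log2 ratio over the square root of F. The p-values of edgeR come from a variance moderated across all elements, so they do not measure the spread of a single element alone. The replicates behind that variance are electroporations of 1 plasmid library. Alternatives used DESeq2 1.42.0, limma 3.58.1, other filters and replicates left out. The fit was tested on simulated data. Full statistics are given for members past the threshold or with at least 10 barcodes, and downstream and upstream refer to coordinates alone. The members, role groups and TOP list were chosen with earlier results of these data known.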

Additional observations from a re-analysis of the deposited data

How the results depend on the processing

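The number of members above the centre was 6 with library totals, 7 with DESeq2 and 9 with limma-voom. With the filter of at least 5 barcodes and 50 DNA counts it was 7 of the 26 members kept. The shares of all elements under these settings were 5.003, 12.4, 15.1 and 12.1%, so the background varied more than the count. The count was 6 of the 32 members within 1 kb and 7 of the 37 within 3 kb, and 5 to 7 without 1 RNA replicate. Without the barcode with most RNA of each element, an alternative chosen after seeing the data, it was 7, against 8.41% of all. It was 4 with RNA counts of 1 to 4 set to 0, where 3.40% of all elements were above, and 11 with barcodes weighted equally, where 14.4% were. DESeq2 gave no adjusted p for 12 members. The members' median log2 ratio was -0.22 with library totals and -0.12 with low RNA counts set to 0, where the median of all elements moved to -0.77 and -0.85, and it ranged from 0.49 to 0.63 without 1 RNA replicate. Some uncalled elements changed sign. With library totals these were EIF4E (-0.22), EEF1A1 at 74230666 (-0.41) and NACA at 57119019 (-0.059), and with low counts set to 0 the same elements were at -0.12, -0.32 and -0.066. Without 1 RNA replicate, GNB2L1 ranged from -0.50 to 0.20 and EEF1A1 at 74229044 from -0.56 to 0.23. The median SD between barcodes was 0.98 with a pseudocount of 5. Beyond the shift of the centre, the cause was not tested. No paired analysis was possible because the plasmid DNA is 1 library that carries no replicate number. Limits are the single DNA library, the few barcodes of many members and the absence of silent plasmids from the table.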
